A study of Mus musculus with 24 samples.

Results

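The miR-181 family was described in small RNA libraries of extracellular vesicles (EVs) from mouse serum. Its members are the 4 mature miRNAs of the 5p arms, mmu-miR-181a-5p, mmu-miR-181b-5p, mmu-miR-181c-5p and mmu-miR-181d-5p (the prefix stands for mouse and is mostly left out below), which were taken by name from the 1966 mature miRNAs of the deposited count table. All 4 were among the 252 miRNAs that passed the filter on low counts. All mice were wild type male C57BL/6, 14 to 16 weeks old. The Control group (6 libraries) received saline, without surgery, and consists of the animals that the paper's methods pair with the 6 h time point. The S6h, S24h and S72h groups (6 libraries each) were taken 6, 24 and 72 h after tibia surgery, an open fracture stabilized with a pin under isoflurane and buprenorphine. The S24h and S72h mice received analgesia daily and had controls of their own, which are not analysed here. Surgery, anesthesia and analgesia cannot be told apart in these groups. The paper gave each arm controls of the same animal batch, to limit variation over time. In S24h or S72h against this Control, time after surgery therefore cannot be told apart from a batch of animals. The paper reported that its control groups did not differ statistically. Serum came from clotted blood. The question was whether EV miRNA levels differ from Control at each time after surgery.

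miR-181 miRNAs are small RNAs that guide the Argonaute complex to messenger RNAs through the seed, bases 2 to 8 of the mature strand, and lower the output of those messengers. As background, miR-181a is abundant in thymocytes and other lymphoid cells, where it tunes the strength of T cell receptor signalling, and family members are also found in brain and muscle. Serum EVs are released by many tissues, so the level of a miRNA in them has no single cell of origin.

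The mature sequences, from the RefSeq annotation of GRCm38.p6, are shown because the members differ by so few bases that reads of one can resemble another. They are written 5′ to 3′ with the seed in capitals.
mmu-miR-181a-5p: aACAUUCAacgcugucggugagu
mmu-miR-181b-5p: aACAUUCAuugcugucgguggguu
mmu-miR-181c-5p: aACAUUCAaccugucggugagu
mmu-miR-181d-5p: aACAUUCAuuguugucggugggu
All 4 carry the seed ACAUUCA, and no other of the 1679 mature miRNA names of that annotation does. Positions are counted from 1 at the 5′ end of the first miRNA named. miR-181a-5p and miR-181c-5p differ by 1 edit, the loss of the base at position 11 of miR-181a-5p, and by no substitution. miR-181b-5p and miR-181d-5p differ by C12U and by 1 base less at the 3′ end of miR-181d-5p. miR-181a-5p and miR-181d-5p, which have the same length of 23 bases, differ by A9U, C10U, C12U and A21G. The remaining pairs differ by 4 to 5 edits. How the counting treated reads that align to more than 1 place is not given in the sources used here, so that the split of reads between near-identical members is uncertain.

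The family comes from 6 hairpins in 3 pairs. On GRCm38, Mir181a-1 (chr1:137966455-137966541, plus strand) and Mir181b-1 (chr1:137966639-137966718, plus strand) are separated by 97 bases and lie in an exon of the long noncoding RNA A430106G13Rik on the same strand. Mir181a-2 (chr2:38852735-38852810, plus strand) and Mir181b-2 (chr2:38853830-38853918, plus strand) are separated by 1019 bases and lie in an intron of Nr6a1, a nuclear receptor gene on the opposite strand. Mir181c (chr8:84178873-84178961, minus strand) and Mir181d (chr8:84178716-84178787, minus strand) are separated by 85 bases in an intron of Nanos3, a germ cell gene on the same strand. The mature miR-181a-5p and miR-181b-5p are therefore each made from 2 loci that the count table cannot separate, whereas miR-181c-5p and miR-181d-5p come from 1 locus each.

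Total counts per library ranged from 63956 to 471801, with medians between 75030 in S24h and 177468 in S6h, and a count of 0 allows up to 6.36 to 46.9 CPM (the count scaled by the total of the library) depending on the library. These limits, and the intervals of single counts below, cover counting error only. Levels are CPM of the column totals, given as mean ± SD over 6 libraries, and fold changes are on the TMM-scaled log2 scale of edgeR. Some libraries stand apart and bear on the family. In Control replicate 4 the count of miR-181a-5p was 252 (1877 CPM, the lowest Control value), miR-181b-5p and miR-181c-5p had their highest Control values (1266 CPM and 395 CPM, the latter with a 95% Poisson interval of 296 to 516 CPM) and miR-181d-5p was at 0. Control replicate 1, the deepest Control library, had 0 counts of miR-181c-5p, which allows up to 11.4 CPM. The liver list (miR-122, both arms) made up 29.98% (95% exact binomial interval 29.7 to 30.2%) of the counts of S72h replicate 4, which had the lowest miR-181a-5p and miR-181c-5p of its group, and 12.7 to 16.0% of Control replicates 1, 4 and 6, against 0.221 to 5.22% in the other 20 libraries. Their part in the results was not tested beyond leaving out single libraries.

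The family took 0.618% of all counts. mmu-miR-181a-5p was the most abundant member in 24 of 24 libraries, with 4765 ± 1883 CPM (SD, n = 24), and ranked 47th of the 667 detected miRNAs by mean CPM. mmu-miR-181b-5p followed with 858 ± 363 CPM (rank 79), then mmu-miR-181c-5p with 360 ± 253 CPM (rank 111) and mmu-miR-181d-5p with 254 ± 180 CPM (rank 119). The last 2 differed by less than their spread, and their order differed between groups: miR-181c-5p exceeded miR-181d-5p in 16 of 24 libraries, but in 1 of 6 Control libraries, where its mean was the lower one. miR-181b-5p exceeded miR-181c-5p in 20 and miR-181d-5p in 21 of 24. The mature lengths are 22 to 24 bases, and these CPM carry no correction for ligation or amplification. The sum of the 4 members was 4522 ± 1087 CPM in Control, 5956 ± 1789 in S6h, 7539 ± 2241 in S24h and 6931 ± 2565 in S72h.

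miR-181c-5p had the largest ratio of group mean to Control mean of the 4 members at each time after surgery, although it did not pass the main test. It was at 0 to 395 CPM (median 92.8, mean 137 ± 141) in Control, from 0 to 53 counts. In S6h it was at 186 to 283 CPM (median 225, mean 226 ± 35.5), the lowest relative spread of any member and group, with a coefficient of variation of 15.7%. In S24h it was at 255 to 1001 CPM (median 468, mean 563 ± 282), and in S72h at 244 to 730 CPM (median 551, mean 513 ± 187). All 6 libraries of each surgery group lay above the Control median, but the groups overlapped: 0 of 6 S6h, 3 of 6 S24h and 4 of 6 S72h libraries lay above the highest Control library. Relative to the Control mean, the S6h mean was 1.65 times as high, the S24h mean 4.11 times and the S72h mean 3.74 times. Without Control replicate 4, left out after its values were seen, the Control mean was 85.6 ± 70.0 CPM (SD, n = 5) and the ratios were 2.65, 6.58 and 5.99. Without Control replicate 1, the library at 0 counts, the Control mean was 165 ± 138 CPM (SD, n = 5). The ratios were then 1.38, 3.42 and 3.11.

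miR-181a-5p ranged from 1877 to 4883 CPM (median 3386, mean 3405 ± 1011) in Control and from 2791 to 6230 CPM (median 5003, mean 4497 ± 1398) in S6h. It ranged from 3376 to 9155 CPM (median 5799, mean 5940 ± 2037) in S24h and from 2066 to 8730 CPM (median 5099, mean 5217 ± 2230) in S72h. Above the Control median lay 4 of 6 libraries at 6 h and 5 of 6 at 24 and at 72 h, and the group means were 1.32, 1.74 and 1.53 times that of Control.

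miR-181b-5p ranged from 207 to 1266 CPM (median 686, mean 752 ± 373) in Control, and its means after surgery were 1064 ± 464, 728 ± 321 and 889 ± 249 CPM at 6, 24 and 72 h. The lowest value was 595 CPM in S6h, 380 in S24h and 631 in S72h, and the highest was 1768, 1152 and 1333 CPM. All groups overlapped with Control, and 3 of 6 S24h libraries lay above its median. miR-181d-5p ranged from 0 to 367 CPM (median 295, mean 228 ± 144) in Control, from 61.8 to 385 CPM (median 149, mean 168 ± 112) in S6h, from 67.8 to 677 CPM (median 258, mean 307 ± 234) in S24h and from 0 to 538 CPM (median 331, mean 313 ± 209) in S72h. It had 0 counts in 1 Control and 1 S72h library and at most 81 counts in any library, and its groups overlapped throughout.

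**Figure D1:**
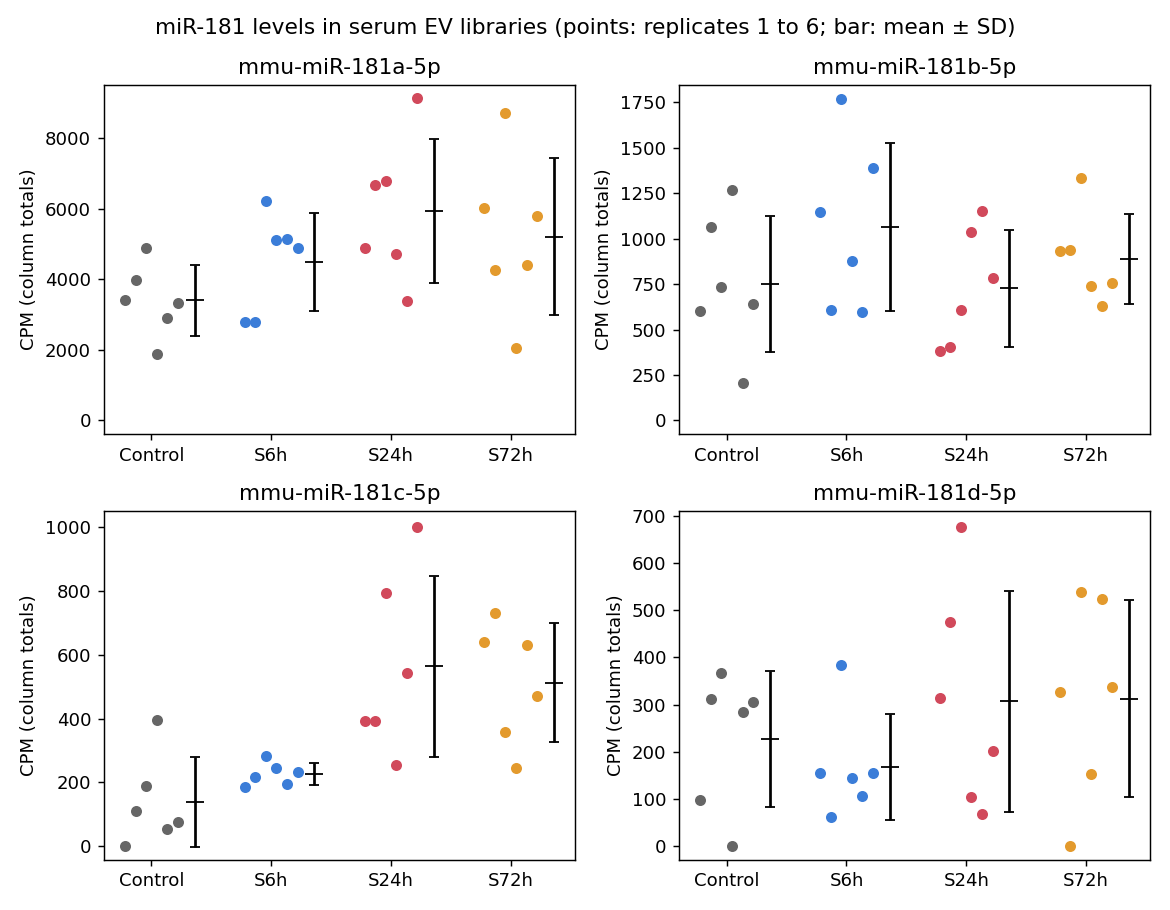
Level of each miR-181 member (CPM of column totals, linear axes) in the Control, S6h, S24h and S72h libraries, with 1 point per library and the mean ± SD (n = 6) beside the points. miR-181c-5p lies at 255 CPM or above in all S24h libraries, and 5 of 6 Control libraries lie below that, and the groups of all 4 members overlap with Control.

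In edgeR's quasi-likelihood test, with Benjamini-Hochberg adjustment over the 252 miRNAs, a call required a fold change of 1.5 or more and an adjusted p below 0.05. None of the 4 members was called in any of the 6 comparisons. DESeq2, the method of the paper, was run as an alternative. The paper names miR-181a-5p and miR-181c-5p among its miRNAs up-regulated at 24 h. Here DESeq2 called the same 2 of 4 members at 24 h, where it called 19.8% of all 252 tested miRNAs. At 72 h it called 1 of the 3 members with an adjusted p, against 23.5% of the 115 miRNAs that had one, since DESeq2 gave no adjusted p to the others (miR-181d-5p among them). It called no member in the other 4 comparisons, where its share of called miRNAs was 0% of 252 in S6h against Control, 37.1% of the 159 with an adjusted p in S24h against S6h, 1.59% of 252 in S72h against S24h and 18.2% of the 198 with an adjusted p in S72h against S6h. At 6 h edgeR called 0% of the tested miRNAs (DESeq2 also called 0, and the unadjusted p was below 0.05 for 9 of them), and the log2 fold changes of the members against Control were 0.47 for miR-181a-5p, 0.53 for miR-181b-5p, 0.75 for miR-181c-5p and -0.34 for miR-181d-5p. All had an adjusted p of 0.991 in edgeR. The interval for miR-181c-5p ran from -0.52 to 2.03, so that a difference of the size seen was not detectable at this spread. Leaving out Control replicate 1 gave 0.48, the lowest value of such fits, and leaving out Control replicate 4 gave 1.57, the highest (adjusted p = 0.454, edgeR), and the miRNA was not called in any of the 24 fits.

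At 24 h, 11.9% of the tested miRNAs were called against Control. miR-181c-5p had a log2 fold change of 1.81 with an SE of 0.64 and a 95% interval from 0.51 to 3.11, and did not pass the threshold (unadjusted p = 0.00772, adjusted p = 0.0591, edgeR). Of the 252 miRNAs, 3.97% had a fold change at least as high. The call depended on the setting: with RLE scaling the adjusted p was 0.0340, with column totals 0.0333 and with DESeq2 0.00781, at log2 fold changes of 1.97, 2.04 and 1.98. It was not made without the filter, with only the 2 groups compared or with the replicate block (adjusted p = 0.0711, 0.142 and 0.0542, edgeR). RLE scaling and column totals each called 14.7% of the tested miRNAs. Over the 24 fits with 1 library left out the log2 fold change of miR-181c-5p ran from 1.54 without Control replicate 1 (adjusted p = 0.0485, edgeR) to 2.63 without Control replicate 4 (adjusted p = 0.0110, edgeR). The call was also made without S24h replicate 2 or S72h replicate 4, so in 4 of 24 fits. miR-181a-5p had a log2 fold change of 0.63 (SE 0.29, 95% interval 0.04 to 1.21, adjusted p = 0.135, edgeR), and passed with RLE scaling (0.81, adjusted p = 0.0427) and with DESeq2 (0.81, adjusted p = 0.0310). miR-181b-5p (-0.22) and miR-181d-5p (0.31) had adjusted p values of 0.776 and 0.844 in edgeR. Their 95% intervals ran from -1.02 to 0.59 and from -1.28 to 1.91. The median log2 fold change was 0.47 over the 4 members and -0.21 over all 252 miRNAs. The latter was -0.06 with RLE scaling and -0.03 with column totals, and the fold changes of the members are to be read against this common shift.

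At 72 h, 3.57% of the tested miRNAs were called against Control. miR-181c-5p had a log2 fold change of 1.92 (SE 0.64, 95% interval 0.61 to 3.22, unadjusted p = 0.00524, adjusted p = 0.0734, edgeR), and 2.78% of the tested miRNAs had a fold change at least as high. It was called with DESeq2 (1.91, adjusted p = 0.0127) and, in 1 of 24 fits with 1 library left out, without Control replicate 4 (2.73, adjusted p = 0.0342, edgeR). RLE scaling, column totals, no filter, only the 2 groups compared and the replicate block did not call it (adjusted p from 0.0719 to 0.224, edgeR). miR-181a-5p had a log2 fold change of 0.64 (95% interval 0.05 to 1.22, adjusted p = 0.218, edgeR). miR-181b-5p was at 0.30 and miR-181d-5p at 0.54, with adjusted p values of 0.747 and 0.778. The median was 0.59 over the members and -0.06 over all tested miRNAs. The 3 comparisons with Control share its 6 libraries, so their values are not independent.

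Between the surgery groups, 20.2% of the tested miRNAs were called in S24h against S6h, 0.397% in S72h against S24h and 9.92% in S72h against S6h. miR-181c-5p was at 1.06 in S24h against S6h (95% interval -0.20 to 2.32, adjusted p = 0.262, edgeR) and at 1.16 in S72h against S6h (95% interval -0.10 to 2.42, adjusted p = 0.283, edgeR). In both later groups 5 of 6 libraries lay above the highest S6h library. On TMM-scaled CPM the S72h and S6h values of miR-181c-5p did not overlap, which held for 3.97% of the tested miRNAs, and on column totals they did. With only these 2 groups in the model the fold change was 1.22 (adjusted p = 0.0405, edgeR), in a fit that called 9.13% of the tested miRNAs. miR-181b-5p was at -0.75 in S24h against S6h (95% interval -1.55 to 0.06, adjusted p = 0.205, edgeR). From 24 to 72 h miR-181a-5p (0.01) and miR-181c-5p (0.10) had 95% intervals from -0.57 to 0.59 and from -1.14 to 1.35, and the sign of both, and of miR-181d-5p (0.23), turned with the scaling.

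**Figure D2:**
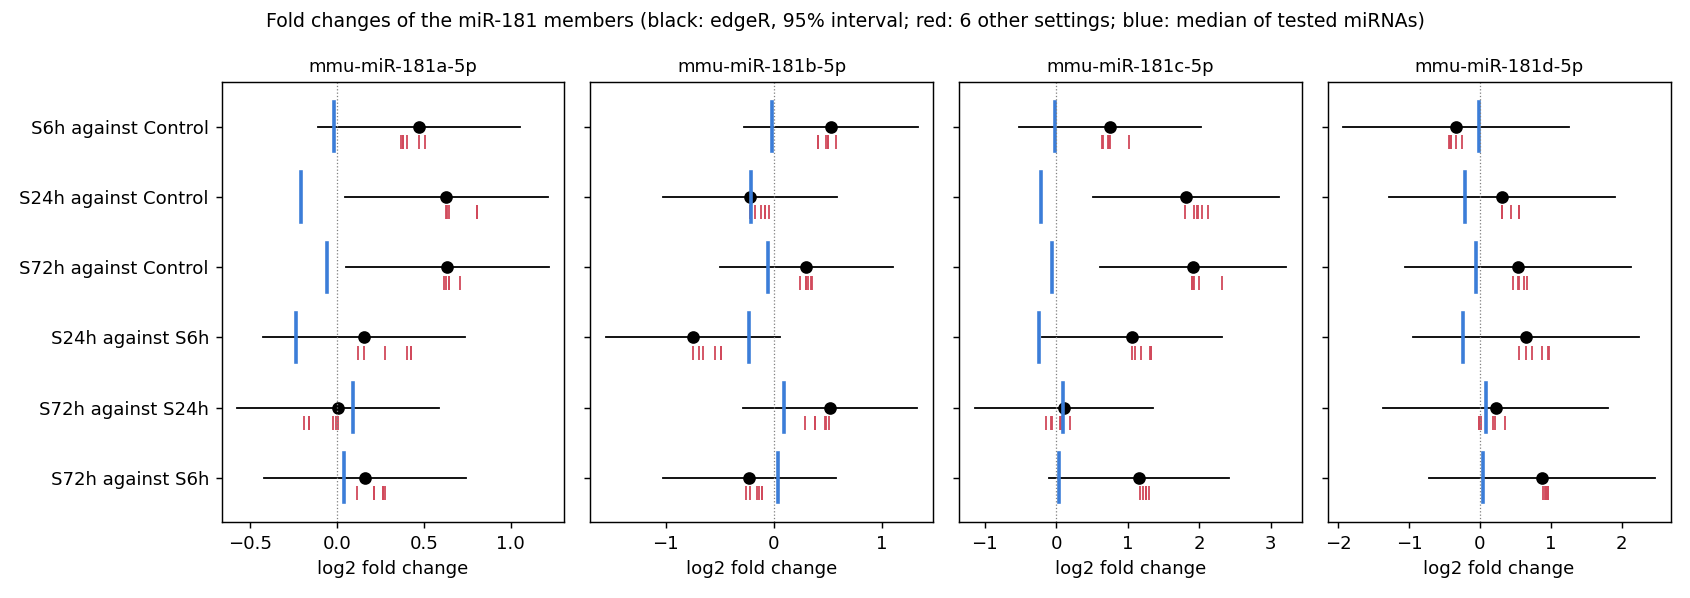
Log2 fold change of each member in the 6 comparisons. Black points with lines are edgeR estimates with 95% intervals, red marks are the 6 other settings (DESeq2, RLE scaling, column totals, no filter, only the compared groups, replicate block), and blue bars are the median of the 252 tested miRNAs. miR-181c-5p lies at 1.81 and 1.92 against Control at 24 and 72 h, with intervals above 0, while all intervals of miR-181b-5p and miR-181d-5p cross 0.

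The make-up of the family was compared within each library, which does not depend on library size. miR-181a-5p held 75.4 ± 7.63% of the family counts over the 24 libraries and 53.1% in Control replicate 4 (95% exact binomial interval 48.5 to 57.6%). The mean share of miR-181c-5p was 3.25 ± 3.996% in Control (median 1.87%), 4.01 ± 1.004% in S6h, 7.36 ± 2.53% in S24h and 7.98 ± 3.11% in S72h. The share of miR-181b-5p was 17.05, 18.02, 10.79 and 13.88%, and that of miR-181d-5p 4.88, 2.68, 3.95 and 4.47% in the same order. Without replicate 4, which had the highest Control share of miR-181c-5p, its Control mean was 1.67 ± 1.0998% (SD, n = 5). Without replicate 1, which had the lowest, it was 3.90 ± 4.10% (SD, n = 5). miR-181c-5p exceeded its cluster partner miR-181d-5p in 1 of 6 Control libraries (replicate 4) and in 5 of 6 libraries of each surgery group.

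**Figure D3:**
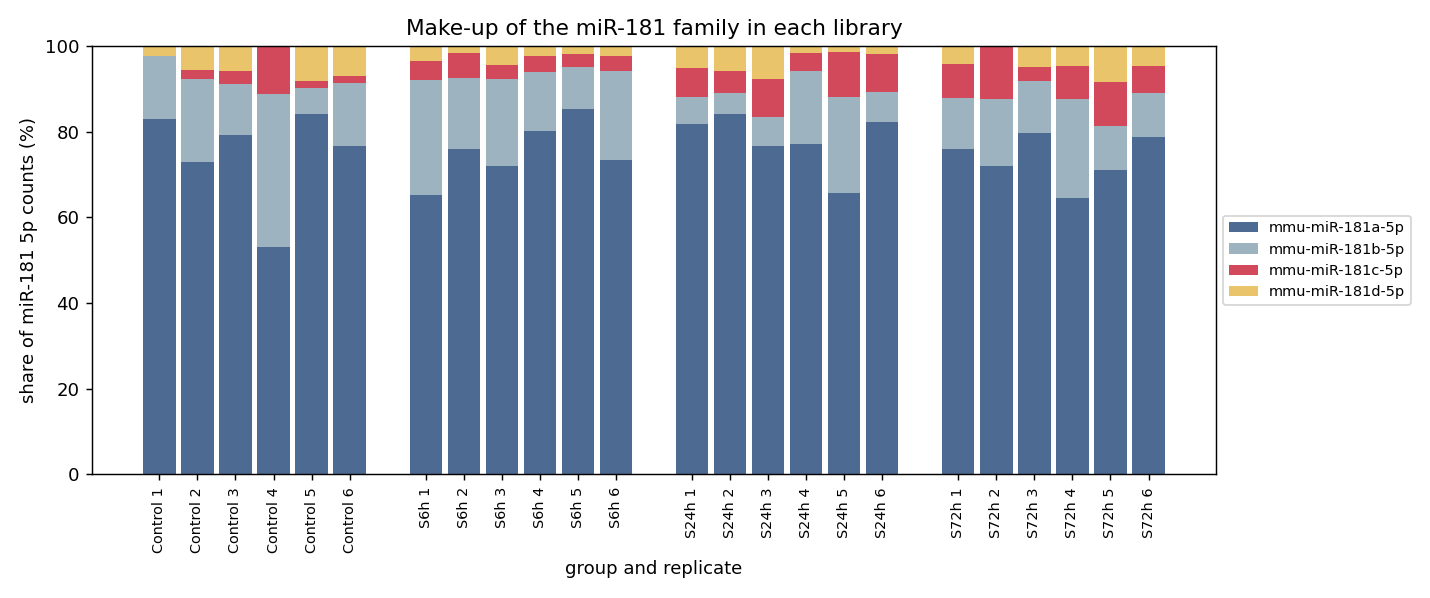
Share of each member in the summed miR-181 5p counts of each library (bars add up to 100%). miR-181a-5p makes up the largest part of each bar, with its lowest share, 53.1%, in Control replicate 4. The miR-181c-5p segment averages 3.25% in Control (1.67% without replicate 4, 3.90% without replicate 1) against 7.36% in S24h and 7.98% in S72h.

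The log2 ratio of miR-181c-5p to miR-181a-5p, the member closest in sequence, was -5.64 ± 2.82 in Control, -4.24 ± 0.38 in S6h, -3.46 ± 0.60 in S24h and -3.30 ± 0.73 in S72h (SD, n = 6). All 6 libraries of each surgery group lay above the Control median, and in each comparison the groups overlapped. Control replicate 4 lay above all surgery libraries, and Control replicate 3 (-4.66) also lay above S6h replicate 5 (-4.69). Against Control the ratio differed by 1.40 in S6h, 2.18 in S24h and 2.34 in S72h (exact two-sided permutation tests, p = 0.294, 0.0476 and 0.0433). None passed after adjustment over the 9 ratio tests (0.445, 0.214 and 0.214). Without Control replicate 4, singled out after its values were seen, all 3 passed (2.08, 2.86 and 3.02, adjusted p = 0.0130, 0.00779 and 0.00779 by the exact permutation test). Without Control replicate 1, which has 0 counts of miR-181c-5p, the differences were 0.36, 1.14 and 1.30 and none passed.

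The ratio of miR-181c-5p to miR-181d-5p, made from neighbouring hairpins, differed from Control by 1.57, 2.05 and 2.37 at 6, 24 and 72 h on the log2 scale (exact permutation tests, adjusted p = 0.551, 0.445 and 0.445). The Control SD of this ratio was 4.13, and replicate 4, with 0 counts of miR-181d-5p, was the highest Control value at 6.74. Without Control replicate 4, singled out after its values were seen, all 3 passed, at 3.10, 3.59 and 3.91 (exact permutation tests, adjusted p = 0.00779 each). The remaining Control values lay below every surgery value, so each unadjusted p was the lowest this test can give. Without Control replicate 1 the differences were 0.61, 1.09 and 1.42, and none passed. The ratio of miR-181b-5p to miR-181a-5p, made from the same 2 hairpin pairs, differed by 0.18, -0.76 and -0.15 (exact permutation tests, adjusted p = 0.771, 0.445 and 0.771).

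**Figure D4:**
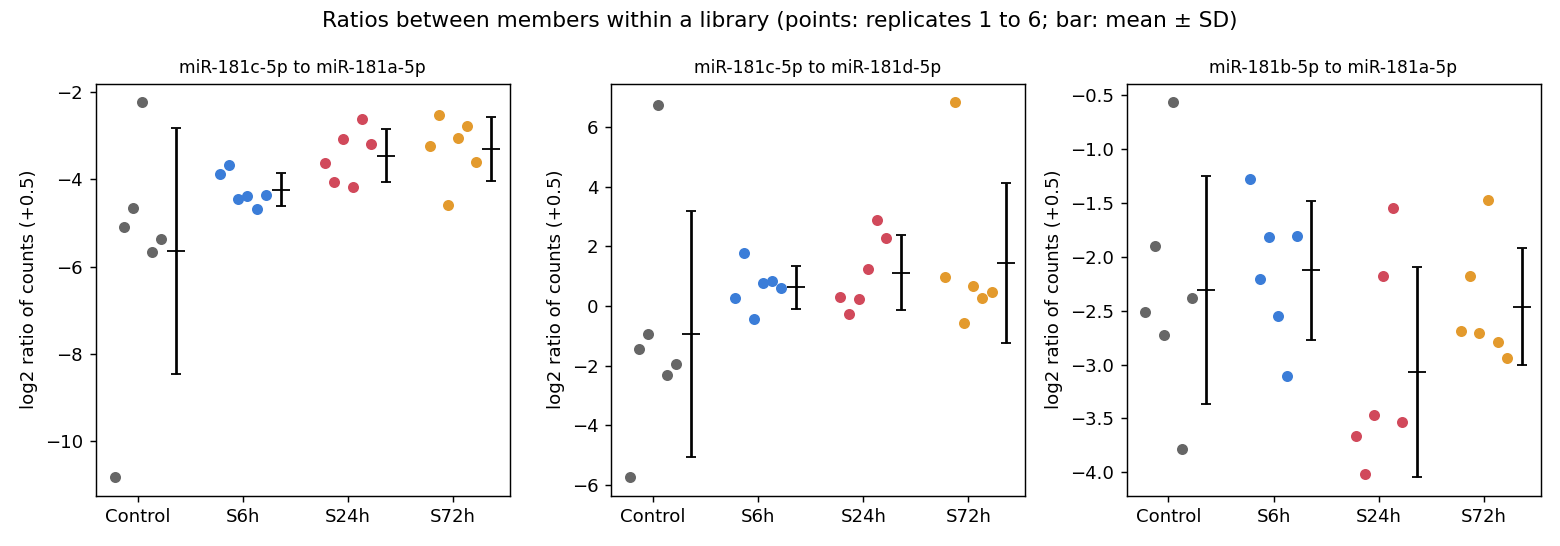
Log2 ratios of counts (with 0.5 added) between members within each library, with 1 point per library and the mean ± SD (n = 6). In the ratio of miR-181c-5p to miR-181a-5p the Control libraries spread around -5.64 ± 2.82, and all surgery libraries lie above the Control median but below Control replicate 4, the highest Control point.

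Nearly all reads came from the 5p arms. The 6 arms on the other side of the hairpins had 198 counts in all against 20753 of the 5p arms, or 0.945% of the sum. miR-181a-2-3p, with 108 counts in 13 libraries, was the only one to pass the filter, and it was not called in any comparison (log2 fold changes of 0.55, -0.78 and 0.60 at 6, 24 and 72 h). miR-181a-1-3p had 34 counts in 5 libraries, miR-181c-3p 32 in 6 and miR-181b-1-3p 24 in 4. miR-181b-2-3p and miR-181d-3p had 0 counts in all 24 libraries.

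Across the 24 libraries the pairs of members had Pearson's r between -0.25 and 0.50, on log2 TMM-scaled CPM with a pseudocount of 4. The highest was between miR-181a-5p and miR-181d-5p (r = 0.50, rho = 0.52), which lie on different chromosomes. The cluster partners miR-181a-5p and miR-181b-5p had r = 0.10, and miR-181c-5p and miR-181d-5p had r = -0.07 (rho = 0.14). These are descriptions over libraries that share depth and group, without a p. The miRNAs with the most similar pattern to miR-181a-5p were miR-342-3p (r = 0.64, rho = 0.69), miR-145a-5p (r = 0.63, rho = 0.56) and miR-497a-5p (r = 0.63, rho = 0.58). For miR-181b-5p they were miR-335-5p (r = 0.70, rho = 0.47), miR-126a-5p (r = 0.62, rho = 0.35) and miR-130a-3p (r = 0.58, rho = 0.50). For miR-181d-5p they were miR-421-3p (r = 0.74, rho = 0.51), miR-674-3p (r = 0.66, rho = 0.16) and miR-362-3p (r = 0.65, rho = 0.41). For miR-181c-5p they were miR-26b-5p (r = 0.59, rho = 0.52), miR-126a-5p (r = 0.58, rho = 0.55) and miR-99b-5p (r = 0.57, rho = 0.39). They were picked by correlation over the same libraries, group differences included, so a change like that of the member is partly built in. Of these, miR-26b-5p (0.73, adjusted p = 0.0460, edgeR) and miR-145a-5p (1.19, adjusted p = 0.0111, edgeR) were called higher at 24 h against Control. There 10 of 252 tested miRNAs were called higher, and 11.9% in either direction. miR-145a-5p was also called higher in S24h against S6h (1.41, adjusted p = 0.00159, edgeR) and in S72h against S6h (0.99, adjusted p = 0.0365, edgeR). miR-335-5p was called lower in S24h against S6h (-2.48, adjusted p = 0.0454, edgeR). In S24h against S6h 6.35% of all tested miRNAs were called higher and 13.9% lower, and in S72h against S6h 11 of 252 were called higher.

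The markers of other cell types were compared beside these results. The 6 erythroid miRNAs of the list summed to 113096 to 198358 CPM in Control and to 35397 to 130370 CPM in S24h. Of them, 4 of 6 were called lower at 24 h and 1 of 6 at 72 h, against 7.94% and 1.59% of all tested miRNAs, and none was at 0 in all libraries. Their part in the miR-181c-5p values was not tested. The 6 leukocyte miRNAs summed to 11022 ± 2661 CPM in Control, 12116 ± 3578 in S24h and 9560 ± 3734 in S72h. Of them, 0 of 6 were called against Control at any time by edgeR, where 0, 11.9 and 3.57% of all tested miRNAs were at 6, 24 and 72 h. In S24h against S6h 1 was called higher and 1 lower, where 6.35% and 13.9% of all tested miRNAs were. Of the 6 brain miRNAs 2 passed the filter and 2 were at 0 in all libraries. The brain list summed to 10591 ± 3586 CPM in Control, 10691 ± 2129 in S6h, 12344 ± 4303 in S24h and 12177 ± 4099 in S72h. Of the 5 skeletal muscle miRNAs 0 were called against Control at any time by edgeR, beside the same shares of 0, 11.9 and 3.57%. They summed to 34151 to 90196 CPM in Control, 60182 to 265491 in S6h and 15682 to 43550 in S24h. In S72h they summed to 6442 to 237383 CPM with a median of 27754, and the highest value was that of replicate 1. In S24h against S6h 3 of 5 skeletal muscle and 2 of 6 erythroid miRNAs were called lower, where 13.9% of all tested miRNAs were. In S72h against S6h 0 of 5 skeletal muscle and 1 of 6 erythroid miRNAs were called lower, where 14 of 252 tested miRNAs were. The part of either list in the miR-181c-5p values of these comparisons was not tested.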

How the data were processed

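Small RNA of serum EVs was sequenced in 24 libraries, 6 per group, grouped through the sample labels. The authors used cutadapt for adapter removal, Bowtie for alignment to GRCm38, a selection of miRNA-sized reads, and featureCounts with the miRBase annotation for counting, as their methods state. SAMtools is named in the submitters' processing notes. The deposited values are raw counts per mature miRNA. No 2 libraries were identical.

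The members, marker lists and nearest-pattern rule were chosen with earlier results of these data known. Named are the 4 members, the other arms of their hairpins, and for each member the 3 tested miRNAs with the highest Pearson correlation. Marker lists are given as counts and sums. miRNAs with at least 10 CPM in at least 12 of 24 libraries were tested (252) in 1 edgeR 4.0.16 quasi-likelihood model of the 4 groups (R 4.3.3, TMM scaling, Benjamini-Hochberg). Standard errors were derived from the F statistic and are approximate. Ratios were compared by exact permutation over 924 splits (scipy 1.17.1), adjusted over 9 tests. Alternatives were DESeq2 1.42.0, RLE scaling, column totals, no filter, only the groups compared, a replicate block, a pseudocount of 1 and leaving out each library. The model was tested on simulated data. Each group has 6 animals per the paper's methods, and the spread is that between these libraries. Total counts per library, from 63956 to 471801, limit a count of 0 to between 6.36 and 46.9 CPM.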

Additional observations from a re-analysis of the deposited data

Results flagged for a closer look

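Among 28 groups of 6 values examined for a library far from the others (4 members in 4 groups, and 3 ratios in 4 groups), 2 were found, and chance gives about 1.4. The level of miR-181d-5p in S6h replicate 3 was the highest of its group, at 385 CPM against a median of 149, and the gap to the next library was 0.710 of the range of the group. The log2 ratio of miR-181c-5p to miR-181d-5p in S72h replicate 2, a library with 0 counts of miR-181d-5p, was the highest of its group, with a gap of 0.791 of the range. Control replicate 4, with 0 counts of the same miRNA, was the highest of its group in that ratio and was not found by this rule.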

How the results depend on the processing

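Direction and call were the same as reported in 126 of 143 fold changes under the other settings and in 561 of 576 fits with 1 library left out. No member was called in the main fit, so the same call means that a member stayed uncalled. Many of these fits leave out a library of neither compared group, where most values hardly move. The fractions are therefore no measure of robustness. Exceptions follow, and the cause was not tested. At 24 h against Control miR-181a-5p passed with DESeq2 (0.81) and RLE scaling (0.81), and miR-181c-5p with DESeq2 (1.98), RLE scaling (1.97) and column totals (2.04). At 72 h miR-181c-5p passed with DESeq2 (1.91), and against S6h with only the 2 groups compared (1.22). In S72h against S24h the sign turned for miR-181a-5p (-0.16 with DESeq2, -0.16 with RLE scaling, -0.19 with column totals, -0.022 with only the 2 groups, -0.0055 with the replicate block), for miR-181c-5p (-0.065 with DESeq2, -0.064 with RLE scaling, -0.14 with column totals) and for miR-181d-5p (-0.0060 with DESeq2, -0.0057 with RLE scaling). The number of miRNAs called was 2 at 6 h against Control without the filter, 50 at 24 h with DESeq2, and at 72 h 27 with DESeq2, 2 with column totals, 0 with only the 2 groups compared and 1 with the replicate block. In S72h against S24h it was 4 with DESeq2, 10 without the filter and 0 with only the 2 groups.

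With 1 library left out, the log2 fold change against Control at 24 h ranged from -0.42 to 0.045 for miR-181b-5p, from 1.54 to 2.63 for miR-181c-5p and from -0.082 to 0.57 for miR-181d-5p. At 6 h miR-181c-5p ranged from 0.48 to 1.57, at 72 h from 1.64 to 2.73, and in S72h against S24h miR-181a-5p from -0.12 to 0.077 and miR-181c-5p from -0.046 to 0.24. The number called ranged from 1 to 14 in S72h against Control, from 32 to 53 in S24h against S6h, from 1 to 5 in S72h against S24h and from 13 to 35 in S72h against S6h. The ratio of miR-181c-5p to miR-181a-5p ranged from 0.36 to 2.08, 1.14 to 2.86 and 1.30 to 3.02 at 6, 24 and 72 h, that to miR-181d-5p from 0.61 to 3.10, 1.09 to 3.59 and 1.30 to 3.91, and that of miR-181b-5p to miR-181a-5p from -0.11 to 0.53 at 6 h and from -0.45 to 0.20 at 72 h. The last turned sign without Control replicate 5 at 6 h and without Control replicate 4 at 72 h. At 24 h miR-181b-5p turned sign without Control replicate 4 and miR-181d-5p without S24h replicate 3.

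The replicate numbers do not pair the libraries. Over 36 pairs with the same number the correlation of deviations ran from -0.25 to 0.15, 6 were over 0.1, and 5 of 24 libraries correlated best with their own number. With the replicate block miR-181c-5p was at 2.12 (adjusted p = 0.0542) at 24 h and 2.32 (adjusted p = 0.0741) at 72 h in edgeR. A low count limits miR-181c-5p and miR-181d-5p, which had as few as 0 counts in single libraries.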
